A study of Mus musculus with 9 samples.

Results

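The genes followed here were the Notch receptors Notch1, Notch2 and Notch3, the ligands Jag1, Jag2, Dll1 and Dll4, the glycosyltransferase Lfng, and the target genes Hes1 and Hey1. They were taken by symbol, as 10 of the 50600 genes in the deposited tables, and the rule used no measured value. RNA was sequenced from 9 mouse libraries in 3 groups of 3 numbered replicates. Organoids came from normal small intestine of WT mice (strain given as C57BL/6) and spent 24 hr in a mixture of 50% conditioned medium (cM) and concentrated organoid medium with EGF, Noggin and R-spondin1. The conditioned medium came either from tumoroids (T-cM) or from WT organoids (WT-cM). By the study's methods WT-cM was made from medium with R-spondin, and tumoroids were kept in medium without it. The time of conditioning could differ as well. Base medium and time thus moved with the source of the cM and cannot be told apart from it. Tumoroids were untreated cultures of epithelial tumour cells from Apc1638N/+ mice (strain given as MIX), which carry one mutant allele of the Wnt pathway inhibitor Apc. By the study's methods they grew in medium without R-spondin and came from older mice than the organoids. Genotype, strain, age, medium and tumour origin therefore all moved together between organoids and tumoroids and cannot be told apart. The methods also describe reporter alleles in the mouse lines, and the labels do not say which of these the libraries carried.

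The title and the treatment field of each organoid library name opposite media. Both place the same 3 libraries together, so the organoid groups are named here by title, as WT-cM-titled and T-cM-titled, and each direction between them is reversed where the treatment field holds. Tumoroids against the mean of both organoid groups does not depend on this.

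Notch signalling passes between touching cells. A ligand of the Delta-like or Jagged family on one cell binds a Notch receptor on its neighbour, the receptor is cut by ADAM proteases and γ-secretase, and the freed intracellular part joins the DNA-binding protein RBPJ to switch on genes of the Hes and Hey families. In the intestinal crypt the pathway keeps stem and progenitor cells undifferentiated and steers them towards the absorptive fate, while cells that escape it express Atoh1 and become secretory.

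The depth was 16541635 to 25170966 reads on genes per library. Levels are given as CPM, the counts scaled to the TMM-normalised library size. A level of 3 counts or less was read as not detected, which is 0.103 to 0.204 CPM depending on the library. TMM factors were 0.890 to 0.962 in organoids and 1.19 to 1.21 in tumoroids, so the scaling moved with the group. The median log2 fold change of all 16208 genes tested, tumoroids against both organoid groups, was 0.16 with TMM, 0.27 with upper-quartile factors and 0.52 on log2(TPM + 1). The number of genes called higher and lower was 3400 and 1963 with TMM against 4174 and 1143 on log2(TPM + 1). Epithelial identity markers summed to 8749 to 10977 CPM in organoids and 6684 to 7448 CPM in tumoroids, with all 8 detected in every library. Of these, Krt18 was called higher in tumoroids and Krt19 and the intestinal factor Cdx1 lower, Cdx1 being at 117, 32.1 and 28.8 CPM in tumoroids 1 to 3 against 142 to 183 CPM in organoids. Absorptive markers fell from between 25692 and 50095 CPM in organoids to between 432 and 916 CPM in tumoroids. Replicates of a group are separate cultures by the labels, and p-values measure only the spread between these samples.

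The receptors Notch2 and Notch3, the ligand Jag2 and Lfng were higher in tumoroids than in the mean of both organoid groups, and the ligand Dll1 was lower. These were 4 of the 9 tested genes of the set called higher and 1 called lower (edgeR quasi-likelihood test, adjusted p under 0.05 and absolute log2 fold change above 1), against 21% and 12.1% of all genes tested. With the adjusted p alone, Notch1 and Hes1 joined them, which made 6 higher and 1 lower, where 29.6% of all genes passed as higher and 20.8% as lower. In 5 of the 9 genes every tumoroid library lay above every organoid library, and in 1 every tumoroid library lay below, which was so for 25.6% and 20.2% of all genes tested. The median log2 fold change of the 9 genes was 0.94, and that of all genes tested was 0.16. Hey1 did not reach a TPM of 1 in any library and was not tested. Notch3 reached it only in tumoroids, at 5.64 to 41.0 TPM against at most 0.32 TPM in organoids. It was thus tested only through the group where it was high. Against WT-cM-titled organoids alone the same 4 genes were called higher and Dll1 lower (18.2% and 11.6% of all genes tested), and so they were against T-cM-titled organoids alone (19.4% and 11.8%). These comparisons share the tumoroid libraries. In bulk RNA, fewer cells of a type and less RNA per cell cannot be told apart, which holds for every level below.

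**Figure D1:**
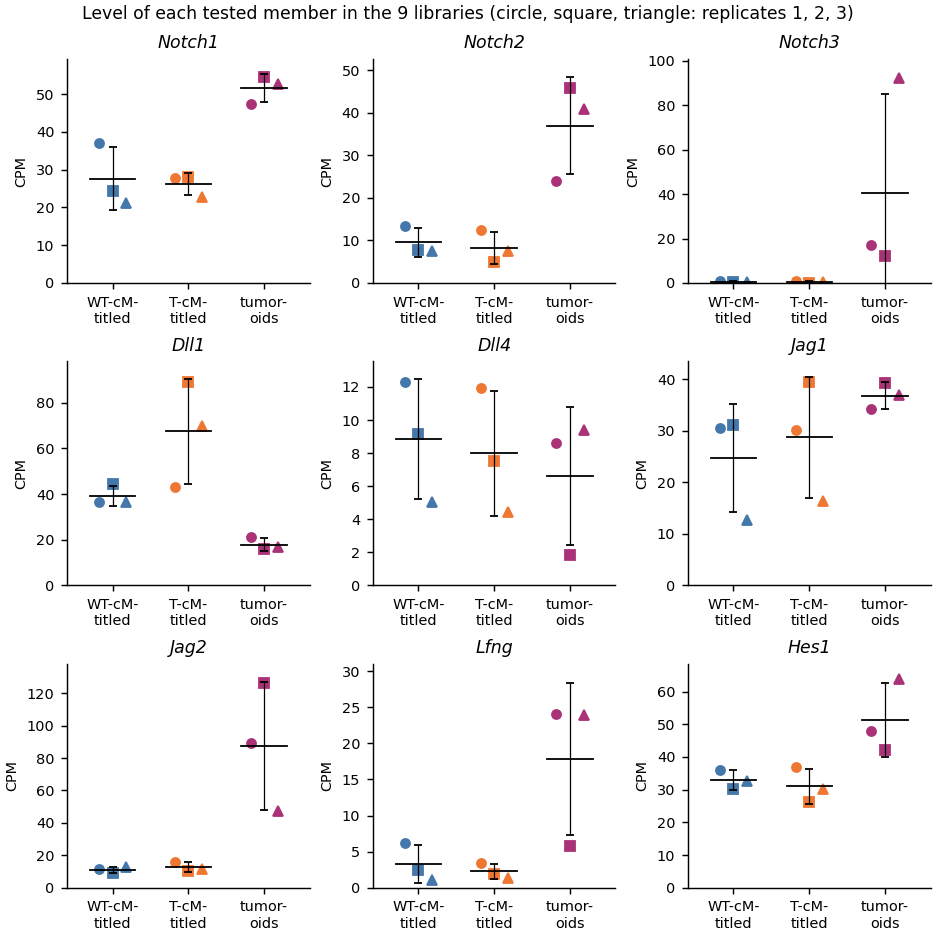
CPM of the 9 tested genes in each library, with the mean (line) and SD (bar, drawn down to 0 at the lowest) of each group of 3. Notch1, Notch2, Notch3, Jag2 and Hes1 lie higher in every tumoroid library than in any organoid library, and Dll1 lies lower.

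Promoter sequence is shown for 3 of these genes, for Lfng and Notch1 because their windows held an RBPJ or TEAD motif and for Notch3 because it changed most and held neither. Each is the 250 bases before the RefSeq transcription start on GRCm38.p6, written 5′ to 3′ on the strand of the gene. Capitals mark TGGGAA, the core of the site that RBPJ binds (TTCCCA where it lies on the other strand), and CATTCC, the core site of TEAD factors, the DNA-binding partners of YAP.
Lfng: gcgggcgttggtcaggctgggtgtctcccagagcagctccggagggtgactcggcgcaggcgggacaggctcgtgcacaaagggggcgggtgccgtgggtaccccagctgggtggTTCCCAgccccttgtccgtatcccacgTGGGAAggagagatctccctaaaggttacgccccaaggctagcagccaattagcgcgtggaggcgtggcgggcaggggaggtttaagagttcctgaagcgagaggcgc
Notch1: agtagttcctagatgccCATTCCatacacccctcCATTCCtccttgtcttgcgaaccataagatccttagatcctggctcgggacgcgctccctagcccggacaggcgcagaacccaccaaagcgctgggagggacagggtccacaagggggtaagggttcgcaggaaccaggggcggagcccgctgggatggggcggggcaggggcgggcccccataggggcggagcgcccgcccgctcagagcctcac
Notch3: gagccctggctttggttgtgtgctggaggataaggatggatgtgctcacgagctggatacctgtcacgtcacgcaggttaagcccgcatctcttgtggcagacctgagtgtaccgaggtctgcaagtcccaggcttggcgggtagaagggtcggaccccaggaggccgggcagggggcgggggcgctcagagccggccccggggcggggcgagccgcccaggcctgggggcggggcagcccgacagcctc
The Lfng window (chr5:140607091-140607340, plus strand) held TGGGAA at 135 to 130 bases before the start on the opposite strand and at 108 to 103 bases before it on the strand of the gene. The second match was part of the longer RBPJ site GTGGGAA. The Notch1 window (chr2:26503823-26504072, minus strand) held CATTCC at 233 to 228 and at 216 to 211 bases before the start. This RefSeq start lies inside the longer gene model of the Gencode annotation. The Notch3 window (chr17:32166891-32167140, minus strand) held neither. TGGGAA or CATTCC occurred in none of the other 6 windows, which belonged to Notch2, Jag1, Jag2, Dll1 (2 starts) and Dll4. Among all 32851 promoter windows of this length, searched on both strands, 21.6% held TGGGAA, 5.42% GTGGGAA, which contains it, and 12.6% CATTCC. The N-box CACNAG, the site at which Hes proteins bind, occurred in 36.7% of all windows and in those of Notch1, Notch2, Notch3, Dll4 and Lfng. The windows of the set had 56 to 87.2% G and C, with the highest in Jag2, against a median of 52.4% over all windows. RefSeq windows were matched for 8 of the 10 genes, not for Hes1 and Hey1.

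Notch1 (chr2:26457903-26516663, minus strand, Gencode positions on GRCm38) encodes the main Notch receptor of intestinal stem and progenitor cells together with Notch2. Its level was 37.1, 24.4 and 21.3 CPM in WT-cM-titled organoids 1 to 3, 27.8, 28.1 and 22.8 CPM in T-cM-titled organoids and 47.5, 54.5 and 52.7 CPM in tumoroids. Every tumoroid library was above every organoid library, with a mean of 51.6 ± 3.66 (SD, n = 3) against 26.9 ± 5.66 CPM (SD, n = 6). The log2 fold change was 0.94 with a standard error (SE) of 0.18 (adjusted p = 0.00169), just under the threshold of 1. It passed the adjusted p in all 19 alternative analyses, at 0.86 to 1.46.

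Notch2 (chr3:98013527-98150361, plus strand) was measured at 13.5, 7.78 and 7.48 CPM in WT-cM-titled and 12.4, 4.95 and 7.55 CPM in T-cM-titled organoids. Tumoroids held 24.0, 45.8 and 40.9 CPM. The lowest tumoroid library was thus above the highest organoid library, and the level was 4.14-fold higher in tumoroids (log2 fold change 2.05, SE 0.31, adjusted p = 0.000491). In organoids, replicate 1 had the highest level of Notch2 in both groups.

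Notch3 (chr17:32120820-32166852, minus strand), a receptor best known from the mural cells of blood vessels, changed most of the set. Organoids held only 3 to 19 counts per library, which is 0.204 to 1.00 CPM. Tumoroids 1, 2 and 3 held 376, 327 and 2681 counts, or 17, 12.2 and 92.1 CPM. All 3 tumoroids lay above all organoids, and tumoroid 3 stood apart from the other two. The log2 fold change was 6.19 (SE 0.72, adjusted p = 8.92e-05), and without tumoroid 3 it was 4.71. On log2(TPM + 1) it was 3.48 and on log2(TPM + 0.1) 5.56. Among 12 mural and mesenchymal markers, 4 or 5 were at 0 in each tumoroid library and 6 to 9 in each organoid library. Their summed level was 0.714 to 1.75 CPM in organoids and 3.01 to 49.8 CPM in tumoroids. Most of the upper value was Acta2, the actin of smooth muscle, with 89, 50 and 1340 counts in tumoroids 1 to 3. Rgs5, a pericyte gene, held 17, 10 and 27 counts in tumoroids 1 to 3 and 0 or 1 in organoids, and Pdgfrb 4, 3 and 52 counts against 8 to 24. Myh11 and Des, of contractile muscle cells, had at most 4 counts and Col1a1 at most 12 in any library, while Col3a1 and Lum, defining genes of fibroblasts, were at 0 in all 9. The other genes of the list had at most 8 counts. Acta2 and Notch3 were thus both highest in tumoroid 3, and the part of such cells in the Notch3 level was not tested.

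**Figure D2:**
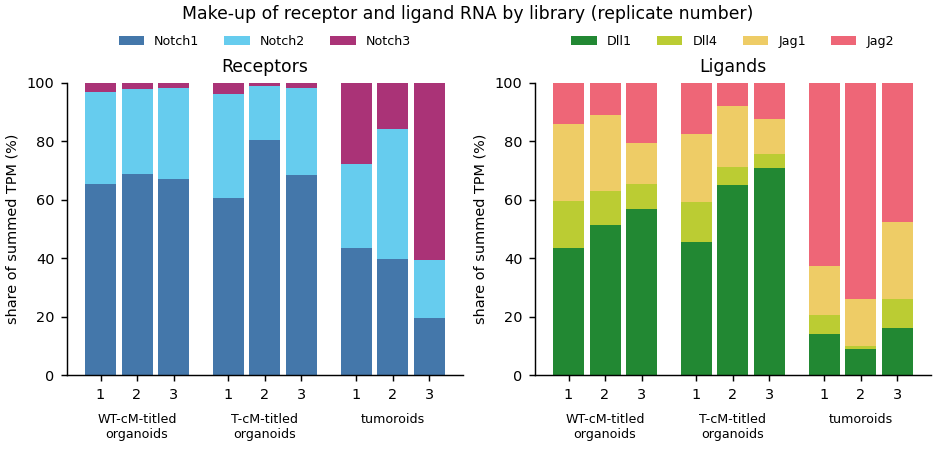
Share of each receptor (left) and ligand (right) in the summed TPM of its kind, by library, with replicate numbers under the bars. Of the sum of Notch1, Notch2 and Notch3, Notch1 forms 60.5 to 80.3% in organoids and 19.5 to 43.4% in tumoroids. Of the sum of Dll1, Dll4, Jag1 and Jag2, Jag2 forms 7.76 to 20.4% and 47.7 to 73.9%.

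Because TPM values are divided by gene length, they allow genes to be compared with each other. Between organoids and tumoroids they are less comparable, because TPM has no TMM factor. The median of all genes shifted by 0.52 on log2(TPM + 1), against 0.16 with TMM. A rise in summed or mean TPM in tumoroids thus holds this shift too. The 3 receptors summed to 5.10 to 10.4 TPM in organoids and 25.2 to 67.8 TPM in tumoroids. Notch1 formed 68.4 ± 6.56% of this sum in organoids, Notch2 29.3 ± 5.69% and Notch3 2.27 ± 1.03% (SD, n = 6). In tumoroids the shares were 34.3 ± 12.9%, 31.1 ± 12.3% and 34.6 ± 23.2% (SD, n = 3). Notch3 formed 60.4% of this sum in tumoroid 3 and at least 15.7% in the other two, and at most 3.86% in any organoid library. Notch4, outside the set, was not part of the sum. It held 9 to 46 counts in organoids, where Notch3 held 3 to 19.

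Among the ligands, Jag2 (chr12:112907819-112929776, minus strand), a Jagged ligand, rose most in tumoroids. It was at 11.4, 9.12 and 12.6 CPM in WT-cM-titled organoids, at 16, 10.2 and 11.7 CPM in T-cM-titled organoids and at 89.1, 126 and 47.2 CPM in tumoroids. The groups did not overlap, and the level was 7.39-fold higher in tumoroids (log2 fold change 2.89, SE 0.27, adjusted p = 2.59e-05). It passed in all 19 alternatives, at 2.53 to 3.30.

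Jag1 (chr2:137081456-137116644, minus strand), the other Jagged ligand, was at 30.5, 31.1 and 12.6 CPM in WT-cM-titled organoids and at 30.2, 39.6 and 16.3 CPM in T-cM-titled organoids. Replicate 3 was the lowest in both organoid groups. Tumoroids held 34.2, 39.3 and 37.0 CPM, above every WT-cM-titled library but not above T-cM-titled organoid 2. The difference of 0.47 on the log2 scale (SE 0.32) did not pass (adjusted p = 0.25). On log2(TPM + 1) it was 1.01, where the median of all genes was 0.52, and there it passed (adjusted p = 0.0273). Over the 19 alternatives its adjusted p ran from 0.0273 to 0.387.

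Dll1 (chr17:15367354-15376872, minus strand), a Delta-like ligand made by secretory progenitors in the crypt, was the only tested gene of the set called lower. WT-cM-titled organoids held 36.4, 44.3 and 36.6 CPM, T-cM-titled organoids 43.2, 89.2 and 70.1 CPM, and tumoroids 21.2, 15.8 and 16.7 CPM. Every tumoroid library was below every organoid library, and the level was 2.87-fold lower than in both organoid groups (log2 fold change −1.52, SE 0.23, adjusted p = 0.000469). On log2(TPM + 1) this was −0.93 (adjusted p = 0.00314), which no longer passed the fold threshold. Against WT-cM-titled organoids alone the log2 fold change was −1.13, and on log2(TPM + 1) it was −0.57 with an adjusted p of 0.0629.

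Dll4 (chr2:119325784-119335962, plus strand), the other Delta-like ligand of the crypt, was at 12.3, 9.18 and 5.05 CPM in WT-cM-titled organoids, at 12, 7.53 and 4.45 CPM in T-cM-titled organoids and at 8.61, 1.82 and 9.38 CPM in tumoroids. The groups overlapped, and tumoroid 2 was the lowest library of all 9. The log2 fold change of −0.35 (SE 0.52) did not pass (adjusted p = 0.612), and without tumoroid 2 it was 0.10.

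The 4 ligands summed to 34.9 to 79.7 TPM in organoids and 87.3 to 157 TPM in tumoroids. These sums hold the shift of all genes on the TPM scale, so the gap was not read as a change in level. In organoids, Dll1 formed 55.5 ± 10.9% of this sum, Jag1 20.4 ± 6.07%, Jag2 13.9 ± 4.58% and Dll4 10.2 ± 4.41% (SD, n = 6). In tumoroids the largest share was that of Jag2, at 61.4 ± 13.1%, ahead of Jag1 at 19.6 ± 5.60%, Dll1 at 13.1 ± 3.81% and Dll4 at 5.82 ± 4.45% (SD, n = 3). Neither the Jag2 shares nor the Dll1 shares overlapped between organoids and tumoroids, whereas those of Jag1 and Dll4 did.

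Lfng (chr5:140607320-140615545, plus strand) encodes Lunatic fringe, which adds N-acetylglucosamine to the receptors and so favours their binding to Delta-like ligands. It was at 6.27, 2.43 and 1.11 CPM in WT-cM-titled organoids, at 3.49, 1.90 and 1.41 CPM in T-cM-titled organoids and at 24.0, 5.73 and 23.9 CPM in tumoroids. Tumoroid 2 was below WT-cM-titled organoid 1, so the groups overlapped at this point, and the other two tumoroids were well above all organoids. The level was 6.56-fold higher in tumoroids (log2 fold change 2.71, SE 0.57, adjusted p = 0.00295). Against WT-cM-titled organoids alone it was 2.46 on the log2 scale (adjusted p = 0.0196). That call was lost without WT-cM-titled organoid 2 (2.29, adjusted p = 0.0761), WT-cM-titled organoid 3 (2.03, 0.0582) or tumoroid 1 (2.18, 0.0544), and without WT-cM-titled organoid 1, the highest of its group, the value was 3.34.

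Hes1 (chr16:30064384-30067796, plus strand), a repressor that is switched on by Notch and that represses Atoh1, was at 36.1, 30.2 and 32.7 CPM in WT-cM-titled organoids and 36.8, 26.2 and 30.1 CPM in T-cM-titled organoids. Tumoroids held 47.8, 42.2 and 63.9 CPM. All 3 tumoroids lay above all organoids, with tumoroid 3 the highest, but the change was smaller than in the receptors. It was 0.68 on the log2 scale (SE 0.16, adjusted p = 0.00676), and 0.48 without tumoroid 3. Against WT-cM-titled organoids alone Hes1 passed (adjusted p = 0.0254), though not without tumoroid 3 (0.0841) or WT-cM-titled organoid 2 (0.0943) or 3 (0.0700). Against T-cM-titled organoids alone it was 0.72 on the log2 scale (adjusted p = 0.0138, and 0.0626 without T-cM-titled organoid 2).

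Hey1 (chr3:8663359-8667256, minus strand), a related repressor and Notch target, was barely counted. Organoid libraries held 0 or 1 count, and tumoroids 1, 2 and 3 held 1, 2 and 15 counts. Only tumoroid 3, at 0.515 CPM, exceeded 3 counts, so no fold was computed, and at this depth the other libraries could show no difference.

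**Figure D3:**
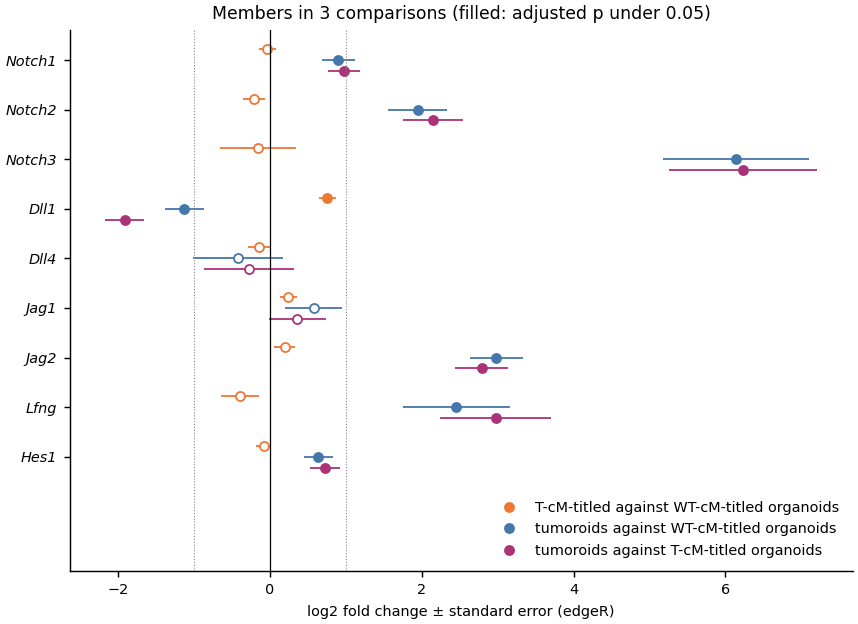
Log2 fold change with its standard error for the 9 tested genes in 3 comparisons, with dotted lines at the fold threshold. Between the organoid groups Dll1 passes the adjusted p with 0.75, while Notch2, Notch3, Jag2 and Lfng lie beyond 1 in tumoroids against either organoid group and Dll1 beyond −1.

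In order of mean TPM, Hes1 stood first in both kinds of culture, at 38.7 ± 6.29 TPM over the 6 organoid libraries and 88.8 ± 20.4 TPM in tumoroids. Dll1 exceeded it in T-cM-titled organoids 2 (52.0 against 31.6 TPM) and 3 (39.6 against 35.2 TPM), as did Jag2 in tumoroid 2 (116 against 77.2 TPM). In T-cM-titled organoids alone the mean was 39.3 TPM for Dll1 and 37.8 TPM for Hes1, so Dll1 stood first there. With TMM, the rise of Hes1 in tumoroids was 1.60-fold. In organoids Hes1 was followed by Dll1, Jag1, Jag2, Dll4, Notch1, Lfng, Notch2, Notch3 and Hey1. Neighbours in this order overlapped between libraries except Dll1 and Jag1, Notch2 and Notch3, and Notch3 and Hey1. In tumoroids the order was Hes1, Jag2, Lfng, Jag1, Notch3, Dll1, Notch1, Notch2, Dll4 and Hey1, with a gap between neighbours only after Jag2 and after Dll4. Dll1 thus stood second at 30.9 ± 12.4 TPM in organoids and, below Notch3, at 14.9 ± 1.40 TPM in tumoroids, while Jag2 went from 7.19 ± 1.63 TPM, below Jag1, to the second place at 76.5 ± 37.4 TPM. Notch3 stood above Dll1 through tumoroid 3 alone (41.0 against 14.2 TPM). It was below Dll1 in tumoroids 1 (6.94 against 16.5 TPM) and 2 (5.64 against 13.9 TPM).

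The organoid groups compared WT epithelium in tumoroid-conditioned medium with WT epithelium in WT-cM. By the methods these 2 media also differed in their base medium. None of the 9 tested genes was called with the fold threshold, where 1.10% of all genes were called. With limma voom and with DESeq2 the count was also 0. An unadjusted p under 0.05 was reached by 2 of the 9, Dll1 and Jag1, a share like the 22% of all genes tested, and with the adjusted p alone 1 passed as higher in T-cM-titled organoids and 0 as lower (5.03% and 5.05% of all genes tested). The gene that passed was Dll1. The T-cM-titled against the WT-cM-titled library held 43.2 against 36.4 CPM in replicate 1, 89.2 against 44.3 CPM in replicate 2 and 70.1 against 36.6 CPM in replicate 3. It was higher in 3 of 3 pairs, at 1.18, 2.01 and 1.92 times, although T-cM-titled organoid 1 was just below WT-cM-titled organoid 2. The log2 fold change was 0.75 (SE 0.11, adjusted p = 3.14e-05 with the replicate number as a block). Without replicate 2 it was 0.60 (adjusted p = 0.358), without the block 0.80 (adjusted p = 0.823), and it passed in 9 of 13 alternatives.

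Of the other genes, Dll4 had the same direction in all 3 pairs, lower in T-cM-titled organoids, which with Dll1 made 2 of 9, against 41.2% of all genes tested. Its log2 fold change was −0.15 (SE 0.14, adjusted p = 0.616). Jag1 had a log2 fold change of 0.24 (SE 0.11, adjusted p = 0.187), and without replicate 1 it was 0.37 and passed (adjusted p = 0.0198). Hes1 was at −0.08 (SE 0.10), Notch1 at −0.04 (0.12), Notch2 at −0.21 (0.15) and Jag2 at 0.19 (0.13). Standard errors were larger for Lfng, at −0.40 (0.25), and for Notch3, at −0.16 (0.50) from 3 to 19 counts. The median over the 9 genes was −0.08, and that of all genes was 0.

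**Figure D4:**
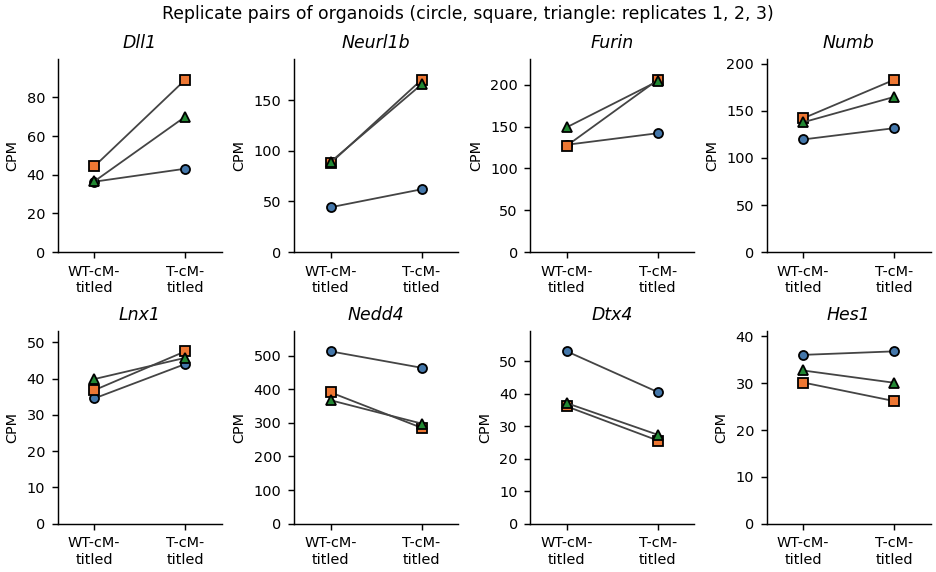
CPM of 8 genes in WT-cM-titled and T-cM-titled organoids, with a line joining libraries of the same replicate number. Dll1, Neurl1b, Furin, Numb and Lnx1 are higher and Nedd4 and Dtx4 lower in the T-cM-titled library of all 3 pairs, while Hes1 moves both ways.

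A list of 54 other genes of the pathway was examined in the same fits, and 46 of them were expressed at a level that was tested. Between the organoid groups 0 were called higher and 1 lower, and with the adjusted p alone 4 passed as higher and 3 as lower, with a median of 0.02. Of all genes tested, 1.10% were called, and 5.03% passed as higher and 5.05% as lower. In T-cM-titled organoids Neurl1b, a ubiquitin ligase that drives ligand endocytosis, was at 132 ± 61.1 CPM against 73.6 ± 25.5 CPM (SD, n = 3 each) and higher in 3 of 3 pairs (log2 fold change 0.80, SE 0.09, adjusted p = 4.68e-07). Furin, the protease that makes the first cut in the receptor, had a log2 fold change of 0.44 (SE 0.09, adjusted p = 0.0011). Numb, an inhibitor of Notch, was at 0.27 (adjusted p = 0.0289) and Lnx1, a ubiquitin ligase that targets Numb, at 0.32 (adjusted p = 0.028). Lower were the ubiquitin ligases Nedd4, at −0.29 (adjusted p = 0.0131), and Dtx4, at −0.43 (adjusted p = 0.00368). The gene called lower was the receptor Notch4, at −1.08 (adjusted p = 0.044), from only 9 to 20 counts in T-cM-titled and 21 to 46 counts in WT-cM-titled libraries. Under limma voom, DESeq2 and the newer edgeR method Notch4 was not called. Of 13 alternatives, Neurl1b and Dtx4 passed in 9, Furin in 8, Nedd4 in 7, Numb and Lnx1 in 5 and Notch4 in 4, and none of the 7 passed without the replicate block.

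Between tumoroids and both organoid groups, 12 of the 46 other pathway genes were called higher and 2 lower, with 21 and 5 passing the adjusted p alone and 20 not passing. Of all genes tested, 21% were called higher and 12.1% lower, and 29.6% and 20.8% passed the adjusted p alone. Their median log2 fold change was 0.37, against 0.16 for all genes. In the group that modifies receptors and drives ligand endocytosis, Neurl1a rose from 0.644 ± 0.102 to 8.46 ± 0.688 CPM (log2 fold change 3.70, SE 0.24, adjusted p = 4.31e-06) and the O-glucosyltransferase Poglut1 from 12.5 ± 1.79 to 39.0 ± 7.04 CPM. Neurl1b fell by 1.00 on the log2 scale (adjusted p = 0.0393). Of 19 alternatives, 9 passed the adjusted p and 6 of these also the fold threshold. Its log2 fold change was −1.43 with T-cM-titled organoids as the reference (adjusted p = 0.0162) but −0.58 with WT-cM-titled organoids (adjusted p = 0.269), which did not pass. The fringe gene Rfng was at −0.44 (adjusted p = 0.0651), and Mfng, at no more than 19 counts in any library, was not tested. Among the genes of receptor cleavage, Adam10, the main ADAM protease of the pathway, was at 165 ± 11.5 CPM in organoids and 226 ± 132 CPM in tumoroids and did not pass (0.45, SE 0.28, adjusted p = 0.205). Only tumoroid 3, at 377 CPM, lay above all organoids, with tumoroids 1 and 2 at 135 and 164 CPM. The γ-secretase subunit Aph1a fell by 0.47 on the log2 scale (adjusted p = 0.00443), but on log2(TPM + 1) it was at 0.046 and did not pass. Aph1b and Aph1c were called higher, at 1.61 and 3.27, but are near-identical copies whose reads the counting could have split, and Aph1c had at most 40 counts.

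Of the genes of receptor turnover, Numb fell from 146 ± 23.2 CPM in organoids to 42.0 ± 6.82 CPM in tumoroids (log2 fold change −1.80, SE 0.16, adjusted p = 1.93e-05). Its relative Numbl rose from 0.329 ± 0.156 to 7.04 ± 5.42 CPM (4.43 on the log2 scale, and 3.59 without tumoroid 3), and both Numb and Numbl were separated between the groups without overlap. Dtx3, of the Deltex family, rose from 0.579 ± 0.252 to 27.4 ± 8.15 CPM (5.57, adjusted p = 2.71e-06) and Nedd4 by 1.25, while Lnx1 fell by 0.97. In the nuclear complex the DNA-binding subunit Rbpj was at 26.1 ± 2.25 CPM in organoids and 28.8 ± 11.3 CPM in tumoroids and did not pass (0.14, SE 0.22, adjusted p = 0.614). Its coactivator Maml2 rose from 0.302 ± 0.202 to 14.7 ± 5.08 CPM (5.72, adjusted p = 3.91e-06), and Maml3 passed at 1.00. On log2(TPM + 1), which lowers the fold of genes near 0, the values were 2.96 for Maml2, 4.61 for Dtx3, 1.68 for Numbl and 2.51 for Neurl1a. Of the 12 genes of the nuclear complex, 2 were called higher and 0 lower, and by the adjusted p alone 7 passed as higher and 0 as lower, against 21% and 12.1% of all genes called and 29.6% and 20.8% passing.

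Of 5 other target genes tested, 3 passed as higher and 0 as lower (29.6% and 20.8% of all genes), with a median of 0.99. Ccnd1 rose from 73.4 ± 20.05 to 872 ± 275 CPM (3.57 on the log2 scale, adjusted p = 5.55e-06) and Myc from 49.1 ± 16.8 to 254 ± 45.2 CPM (2.37, adjusted p = 6.38e-05). Both are also targets of the Wnt pathway. The repressor Bcl6 was at 13.9 to 26.9 CPM in organoids and at 21.8, 42.0 and 49.7 CPM in tumoroids (0.99, adjusted p = 0.012). Those that did not pass were Nrarp and Olfm4. Nrarp, a Notch target that feeds back on the receptor, was at 17.4 ± 3.99 CPM in organoids and 19 ± 8.36 CPM in tumoroids (0.13, SE 0.30, adjusted p = 0.752). Olfm4, a stem cell gene and Notch target, was at 9.36 to 157 CPM in organoids and 1.90 to 19.4 CPM in tumoroids (−2.59, SE 1.17, adjusted p = 0.0918). The high organoid values were those of replicate 1, at 157 CPM in WT-cM-titled and 101 CPM in T-cM-titled organoids. Replicates 2 and 3 held 9.36 to 19.1 CPM, below tumoroid 1. Hes5 and Heyl, with at most 6 counts and 1 count in any library, were not tested.

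**Figure D5:**
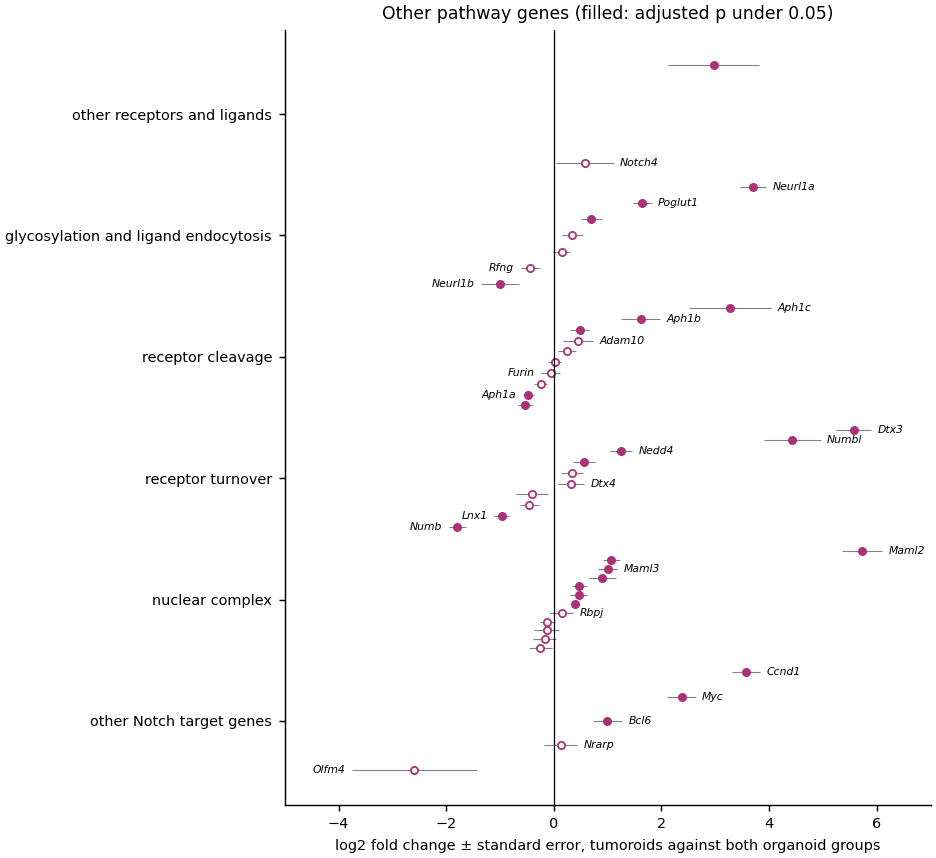
Log2 fold change with its standard error, tumoroids against both organoid groups, for the other tested genes of the pathway by role, with the genes that the text names labelled. Dtx3, Maml2 and Numbl lie furthest to the right and Numb and Olfm4 furthest to the left, Olfm4 with a wide error and not passing.

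The secretory genes that Notch restrains were measured beside them. Atoh1, the master factor of the secretory fate, fell from 9.68 ± 0.656 CPM in organoids to 3.74 ± 2.28 CPM in tumoroids (log2 fold change −1.37, SE 0.40, adjusted p = 0.0168), and Spdef, a factor of goblet and Paneth cells, fell by 2.01 (adjusted p = 0.00107). Neurog3, the factor of endocrine progenitors, rose by 3.42 (adjusted p = 0.00842), Sox4 by 3.53 (2.66 without tumoroid 3) and the tuft cell factor Pou2f3 by 2.13. Neurog3 was at 4.35 without T-cM-titled organoid 1 and at 4.24 without WT-cM-titled organoid 1. Of 10 such factors, 5 passed as higher, 2 as lower and 3 did not pass, where 29.6% of all genes passed as higher and 20.8% as lower. Of 10 markers of mature goblet, Paneth, endocrine and tuft cells, 1 passed as higher, Mmp7 at 1.98 (1.25 without tumoroid 3), and 6 as lower, with a median of −1.31. These markers summed to 1600, 357 and 1552 CPM in tumoroids 1 to 3. Tumoroid 2 was thus the lowest tumoroid here, as it was for Lfng, Dll4 and Atoh1, and a link between these was not tested. Absorptive markers fell in 8 of 8. Between the organoid groups 0 of the 10 secretory factors passed (1 of 10 at an unadjusted p under 0.05), with a median of 0.07, where 5.03% of all genes passed as higher, 5.05% as lower and 22% had an unadjusted p under 0.05. Of the 10 mature markers, 0 passed there as higher and 3 as lower, namely Chga at −0.48, Chgb at −0.30 and Mmp7 at −0.35 on the log2 scale. Of the 8 absorptive markers 1 passed as higher, Alpi at 0.75, and 2 as lower, Fabp1 at −0.61 and Fabp2 at −0.56.

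Other cell types were sought through their markers, since Notch genes are also used outside the epithelium. Of 8 endothelial markers, Kdr and Emcn were at 0 in all libraries, 3 to 5 of the 8 were at 0 in any library, and their sum was 1.15 to 1.86 CPM in organoids and 1.49 to 6.05 CPM in tumoroids. In tumoroids 1 to 3, Cdh5 was at 1, 1 and 54 counts (0 in organoids), Tek at 4, 7 and 53 (8 to 19), Vwf at 60, 25 and 64 (1 to 6) and Pecam1 at 5 in each (6 to 20). Immune markers summed to 1.48 to 5.58 CPM in organoids and 7.70 to 27.1 CPM in tumoroids. Of their 8 genes, Cd68 held 101, 150 and 596 counts in tumoroids 1 to 3 (6 to 22 in organoids) and Csf1r 60, 550 and 131 (3 to 62). Ptprc, which all leukocytes express, held 4, 19 and 6 counts (0 to 16) and Itgam 5, 11 and 9 (12 to 33), while Adgre1 and Cd3e were at 0 in every tumoroid library. Enteric glia and neuron markers summed to 6.72 to 11.2 CPM in organoids and 4.57 to 5.99 CPM in tumoroids, with Sox10 at 0 throughout. The part of any of these cells in the levels of the Notch genes was not tested.

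The genes whose pattern over the 9 libraries was most like that of each tested gene of the set were found by the root mean square difference of log2 CPM, each gene centred on its own mean. The closest was Zbtb5 for Hes1, at 0.0583, followed by Cmtr2 for Notch1, at 0.0980. For Jag2 it was Dusp9 (0.158), for Notch2 Tiam1 (0.189), for Jag1 D11Wsu47e (0.208) and for Dll1 Gm42670 (0.208), the last from a mean of 7.78 counts. The nearest genes were further away for Dll4 (Plk1, 0.295), Lfng (Cd44, 0.385) and Notch3 (Rgma, 0.479). Within the set the most alike pair was Notch1 and Hes1, at 0.293, followed by Notch1 and Jag1, at 0.41, and the least alike was Notch3 and Dll1, at 3.53. Zbtb5 and Cmtr2 lay closer to Hes1 and Notch1 than these lay to each other. The distance depends on the size of the changes, so genes with small changes lie close, and no link between genes was tested.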

How the data were processed

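RNA-seq was measured in 9 mouse libraries. Per the study's methods and processing notes, the authors aligned paired reads of stranded, poly(A)-selected libraries to mm10 with STAR and counted them on Gencode genes (mouse release 13). They deposited unnormalised counts per gene, and TPM, which the authors obtained by dividing by gene length and scaling each library. The counting tool, its strand setting and the gene lengths are not given in the sources used here, so reads of overlapping antisense genes cannot be told apart. The table holds gene classes beyond the protein-coding genes that the methods name, and all were kept. No authors' comparison was used.

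Groups and replicate numbers came from the titles. Analyses used R 4.3.3, edgeR 4.0.16, limma 3.58.1, DESeq2 1.42.0 and Python 3.11.15. The deposited counts of the 16208 genes that reached a TPM of 1 in any library were tested with TMM factors and edgeR's quasi-likelihood F test (legacy form), with Benjamini-Hochberg adjustment over all of them. Genes that reached this TPM in a single group, such as Notch3, entered through the group where they were high. The same filter applied to the shares of all genes. A gene was called when it passed both an adjusted p of 0.05 and a log2 fold change of 1 in size. The standard errors given were derived from the test, as the absolute log2 fold change divided by the square root of F. Organoid groups were compared over 6 libraries, blocked on the replicate number, and tumoroids with organoids over all 9 libraries without one. In organoids, deviations of same-numbered libraries from their group means correlated across genes at 0.546, 0.338 and 0.547, so the numbers were taken to pair them. Between tumoroids and organoids the same correlation was −0.07 to 0.20, and the number was not taken as a pairing. No 2 of the 36 pairs of libraries were identical. Scripts were tested on simulated counts with planted changes.

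The genes, the pathway and marker lists and the tests were chosen with earlier results of these data known. Genes named beyond the set were up to 5 per list with the smallest p against tumoroids, up to 3 between organoid groups, 10 fixed regulators and targets, and, for each gene of the set with a mean of at least 100 counts, the 2 tested genes most like it, of which the closer is given. Markers of other cell types at 0 or with their counts by tumoroid were named after their values were seen. Log2 CPM for likeness used a prior count of 2. Positions came from Gencode release 21 (GRCm38) and promoters from RefSeq (GRCm38.p6). Precision is limited by 3 libraries per group, and the limit of 3 counts covers counting error alone, because reads lacking molecular identifiers need not be separate molecules. Alternatives were voom, DESeq2, the newer quasi-likelihood form, upper-quartile and RLE factors, filterByExpr, no TPM filter, limma on log2(TPM + 1) and log2(TPM + 0.1), no fold threshold, the block left out or added, and each library or replicate pair left out. Some genes of the lists entered the fits and counts but are not reported here by name. The other data of the study were not analysed here.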

Additional observations from a re-analysis of the deposited data

How the results depend on the processing

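In tumoroids against both organoid groups, 5 of the 9 tested genes were called, and 5 to 7 over the alternatives (5 to 6 with each library left out). Against WT-cM-titled organoids the count was 4 to 6 and against T-cM-titled organoids 5 to 6 with each library left out. Between the organoid groups it was 0 under every alternative run except without the fold threshold, where it was 1. The number of other pathway genes called there was 1, and 0 with voom, DESeq2, the newer edgeR form, filterByExpr, either TPM scale and no replicate block, 7 without the fold threshold, and 0 to 1 with each replicate pair left out. In tumoroids it was 14, 26 without the fold threshold, and 12 to 16 with each library left out. Over all genes, 179 were called between the organoid groups, against 104 with voom, 93 with DESeq2, 0 on either TPM scale, 385 without replicate 1, 1 without replicate 2 and 91 without replicate 3.

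Leaving out the replicate block, which pairs the organoid libraries, called 0 of all genes (904 at an unadjusted p under 0.05, against 3568), and Dll1 was then at 0.80 (adjusted p = 0.823). Adding the replicate block to the tumoroid comparisons, where the number is no pairing, kept the count of called genes of the set at 5.

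Some changes turned direction, and none of these passed after turning. With each replicate pair left out, Notch1 between the organoid groups ran from −0.16 to 0.16 and Notch3 from −0.36 to 0.060. With each library left out, Dll4 in tumoroids ran from −0.70 to 0.10 against both organoid groups, from −0.78 to 0.029 against WT-cM-titled organoids and from −0.63 to 0.17 against T-cM-titled organoids, with the upper values without tumoroid 2. In the same way, against both organoid groups, Adam10 ran from −0.15 to 0.71, Rbpj from −0.23 to 0.33 and Nrarp from −0.13 to 0.45. On log2(TPM + 1), Dll4 was at 0.0013 against both groups and 0.061 against T-cM-titled organoids, Rfng at 0.070 and Aph1a at 0.046. On log2(TPM + 0.1), Dll4 was at 0.033 against T-cM-titled organoids, Rfng at 0.073 and Aph1a at 0.046. The cause was not tested. Depth limited Hey1, Notch3 in organoids, Notch4 and Aph1c, which held few counts.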
